A study of Mus musculus with 6 samples.

Results

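The genes described here are 10 of the 16579 genes measured in RNA of cells labelled as megakaryocytes (MKs) and sorted from mouse bone marrow. They are the cytokine gene *Il4*, the receptor chains of IL-4 and IL-13 (*Il4ra*, *Il13ra1* and *Il2rg*), the signalling genes *Stat6* and *Irs2*, and the chains of the common beta receptors (*Csf2rb*, *Csf2rb2*, *Il3ra* and *Il5ra*). They were selected by name from the table, and the group was chosen from results of these same libraries in which *Il13ra1* and *Il4* stood out, so the differences between genotypes in these 10 genes are given as a description, and no p is given for them as evidence. In short, *Il13ra1* and *Il4* were higher in all 3 libraries labelled *Becn1f/f;Pf4-iCre* than in any *Becn1f/f* library. The other 8 genes overlapped between the genotypes. Of the 12256 genes tested, 5.42% were likewise higher without overlap in normalized counts.

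The libraries came from 3-month-old mice, 3 of them *Becn1f/f* and 3 labelled *Becn1f/f;Pf4-iCre*. Both genotypes carry the floxed allele of *Becn1*, which encodes the autophagy protein Beclin 1, so the *Becn1f/f* mice are controls without Cre. In the other genotype, the recombinase iCre is driven by regulatory sequence of *Pf4*, which is active in the megakaryocytic lineage and is known to be active also in some other blood cells. Marrow cells were separated by fluorescence-activated cell sorting, the sex of the mice behind these libraries is not given in the labels, and p-values measure only the spread between the 3 libraries of a genotype. The question of the comparison was what loss of Beclin 1 does to the transcriptome of MKs.

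IL-4 and IL-13 are related cytokines of type 2 immunity that signal through receptors sharing the IL-4 receptor alpha chain, which *Il4ra* encodes. In the type I receptor, which binds IL-4, this chain pairs with the common gamma chain, the product of *Il2rg*. In the type II receptor, which binds IL-4 and IL-13, it pairs with the IL-13 receptor alpha 1 chain, the product of *Il13ra1*. Both receptors phosphorylate STAT6, a transcription factor, and the type I receptor also recruits the adaptor IRS2. Monocytes and macrophages are known to carry the type II receptor, and basophils, eosinophils and mast cells are known sources of IL-4 in marrow. IL-3, IL-5 and GM-CSF act through private alpha chains (*Il3ra*, *Il5ra* and *Csf2ra*) that pair with the common beta chain encoded by *Csf2rb*. The mouse has a second gene beside it, *Csf2rb2*, whose product serves IL-3 alone.

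The promoters of the genes that were higher and of the partner chain *Il4ra* are shown to set their base composition side by side. Each is the 250 bases upstream of a RefSeq transcription start in GRCm38.p6, written 5′ to 3′ on the strand of the gene, in lower case, with capitals for the STAT6-type motif TTCNNNNGAA.
*Il13ra1*, chrX:36111858-36112107, plus strand: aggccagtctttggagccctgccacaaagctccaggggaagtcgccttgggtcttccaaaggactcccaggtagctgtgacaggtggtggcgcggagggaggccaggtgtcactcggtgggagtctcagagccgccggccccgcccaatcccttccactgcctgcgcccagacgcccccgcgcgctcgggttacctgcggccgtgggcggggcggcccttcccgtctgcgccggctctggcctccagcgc
*Il4ra*, chr7:125552021-125552270, plus strand: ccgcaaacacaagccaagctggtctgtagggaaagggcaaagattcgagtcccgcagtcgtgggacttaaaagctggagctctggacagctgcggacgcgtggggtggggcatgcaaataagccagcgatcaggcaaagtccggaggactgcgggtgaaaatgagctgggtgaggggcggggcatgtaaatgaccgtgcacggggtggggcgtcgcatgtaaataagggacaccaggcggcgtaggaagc
*Il4*, chr11:53618666-53618915, minus strand: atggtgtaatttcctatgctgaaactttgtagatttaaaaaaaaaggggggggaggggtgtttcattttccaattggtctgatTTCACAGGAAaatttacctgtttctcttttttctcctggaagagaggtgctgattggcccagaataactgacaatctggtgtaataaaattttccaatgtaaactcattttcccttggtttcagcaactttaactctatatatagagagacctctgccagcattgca

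The *Il13ra1* window had a GC content of 70.8% and 21 CG dinucleotides, and the *Il4ra* window 59.6% and 17. The *Il4* window was poor in both, at 37.6% and 0 CG dinucleotides, and a second start that RefSeq lists for *Il4* had 52.8% and 1 in its window. Over the 32851 promoter windows of that table, the medians were 52.4% and 6 CG dinucleotides, so the windows shown for *Il13ra1* and *Il4ra* lay above both medians and that for *Il4* below both. Of the other receptor windows, that of *Il3ra* lay higher than these, with 72.4% and 27 CG dinucleotides. The rest lay lower, with 49.2% and 3 CG dinucleotides for *Il2rg*, 48.0% and 4 for *Il5ra*, and 56.4% and 3 for *Csf2rb2*. Of the signalling genes, *Irs2* had 72.8% and 34 in its window, and *Stat6* 56.8% and 6. RefSeq windows were matched for 9 of the 10 genes, all but *Csf2rb*. On both strands, the STAT6-type motif TTCNNNNGAA was found in the *Il4* window shown and in no other of these genes, and 5.85% of all windows hold it. The general STAT motif TTCNNNGAA was found in the window of *Csf2rb2* alone, beside 7.02% of all windows, and the motifs differ in their spacer, so a match to one is not a match to the other. The PU.1-type motif GAGGAAGT (2.44% of all windows) and the glucocorticoid receptor motif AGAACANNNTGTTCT (0.00913% of all windows) were in none of them. These matches describe letters in the windows and no binding.

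*Csf2rb* and *Csf2rb2* are near-copies, and the start of their coding sequences is shown because it bears on how their reads can be counted. The first 90 coding bases of each, from the longest open reading frame of its longest GENCODE transcript, differ at 3 bases, which are in capitals.
*Csf2rb*: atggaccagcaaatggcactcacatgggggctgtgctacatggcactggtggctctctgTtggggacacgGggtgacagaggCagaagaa
*Csf2rb2*: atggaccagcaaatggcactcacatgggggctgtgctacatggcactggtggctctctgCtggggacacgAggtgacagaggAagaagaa

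Over the whole coding sequence, of 2691 bases in *Csf2rb* and 2637 in *Csf2rb2*, 2507 of 2629 aligned bases were identical (95.4%). Of all stretches of 100 bases, 334 occur in both transcripts, which is 7.0% of those of *Csf2rb* and 7.2% of those of *Csf2rb2*. These were also the 2 of the 10 genes whose deposited counts were not whole numbers. How the counting split shared reads is not given in the sources used here, so the separate values of this pair are uncertain.

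All 6 libraries were of similar depth, with 16467560 to 17156728 estimated counts. *Becn1* itself stood at 84.5, 72.2 and 81.9 FPKM (fragments scaled to the length of the transcript and to depth) in *Becn1f/f* libraries 1, 2 and 3, and at 68.7, 72.5 and 73.0 FPKM in libraries 1, 2 and 3 labelled *Becn1f/f;Pf4-iCre*. The genotypes overlapped, and the log2 fold change was -0.15 ± 0.12 (SE), so the RNA did not separate the labels, and genotype is used here as labelled. Of 16 markers of MKs and platelets, 11 had a mean under 5 FPKM. They summed to 139.5 to 181 FPKM in *Becn1f/f* libraries and 123 to 155 FPKM in the others. Neutrophil markers summed to 24615 to 38332 and 16938 to 29587 FPKM. Eosinophil, basophil, monocyte, macrophage and erythroid lists also summed to more than the MK list, and B, T and NK, dendritic and stromal lists to less. Levels here thus cannot be read as those of MKs alone. *Itga2b*, which encodes CD41, lay between 45.8 and 62.0 FPKM and *Pf4* between 7.88 and 24.1, while the neutrophil gene *S100a8* lay between 4944 and 14716 FPKM. In such bulk RNA, fewer cells of a type and less RNA per cell cannot be told apart.

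The levels of the 10 genes are set out first in the *Becn1f/f* libraries, per length of transcript (FPKM, mean ± SD, n = 3). The common beta chain gene *Csf2rb* was the highest at 108 ± 12.9, followed by *Stat6* at 70.0 ± 7.59, and neither overlapped with the next gene. *Il2rg* (42.4 ± 4.09), *Csf2rb2* (39.9 ± 5.89), *Il3ra* (33.2 ± 6.14) and *Irs2* (31.5 ± 4.83) followed, and each overlapped with its neighbor. *Il4ra* stood apart below them at 20.3 ± 4.27. The lowest were *Il13ra1* at 11.1 ± 1.06, *Il5ra* at 9.89 ± 4.22 and *Il4* at 6.43 ± 3.54, whose ranges overlapped from each to the next. Among all genes in the table, the mean FPKM over the 6 libraries ranked from percentile 57.9 for *Il5ra* to 94.9 for *Csf2rb*, so all 10 lay above the median gene. Without scaling for length, *Il2rg* moved from rank 3 to 6 and *Irs2* from 6 to 3, while *Csf2rb*, *Stat6*, *Csf2rb2*, *Il13ra1*, *Il5ra* and *Il4* kept their ranks. In the libraries labelled *Becn1f/f;Pf4-iCre* the order changed at its lower end: *Il13ra1* (21.6 ± 4.68) and *Il4ra* (19.95 ± 3.68) overlapped in their ranges, and *Il4* (15.0 ± 3.14) lay above *Il5ra* (8.61 ± 1.92) without overlap.

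**Figure D1:**
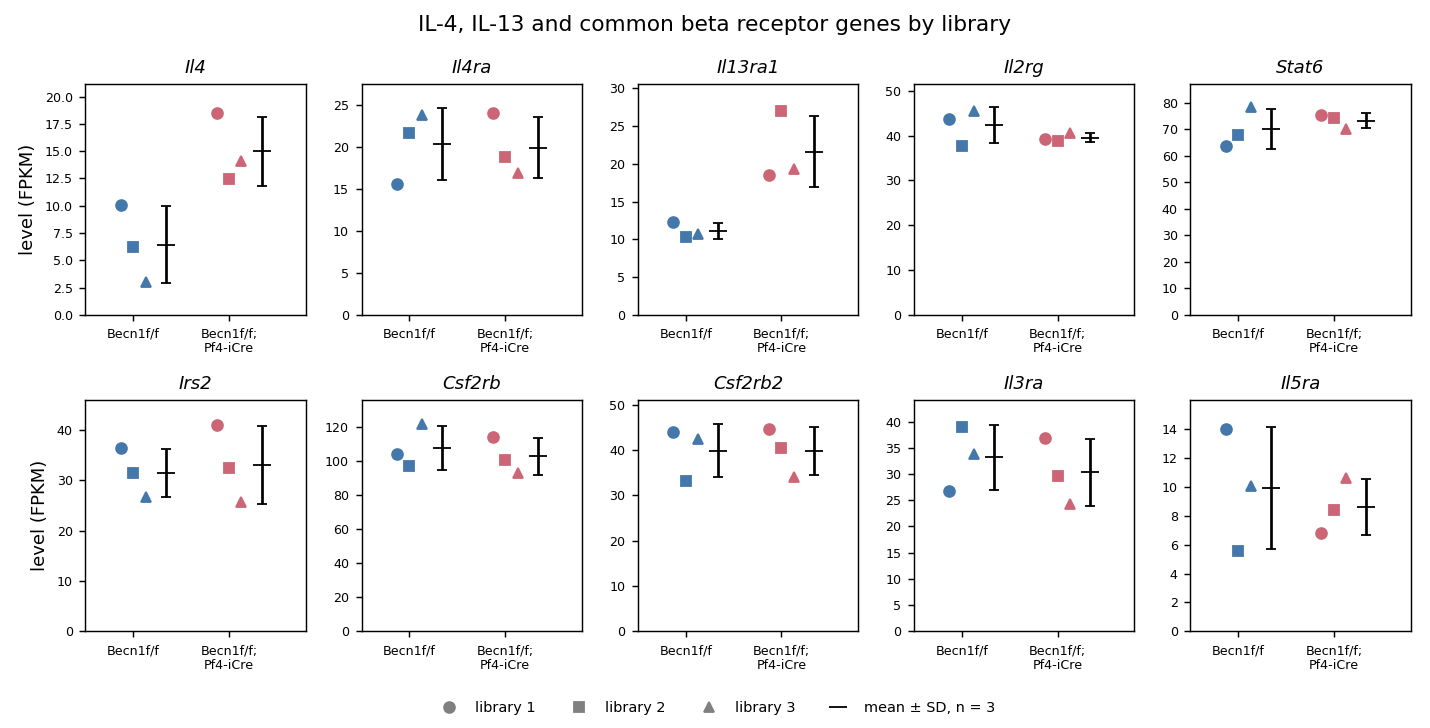
Level (FPKM, linear axis from 0) of each of the 10 genes in every library; circles, squares and triangles are libraries 1, 2 and 3, and the bar beside each group is the mean ± SD of 3 libraries. *Il13ra1* and *Il4* are the genes whose genotypes do not overlap.

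Among the 10 genes, all of which passed the expression filter and entered the fit across 12256 genes, 2 passed the thresholds for differentially expressed genes (DEGs) in the upward direction, *Il13ra1* and *Il4*, and 0 in the downward direction. The thresholds are a fold change of at least 1.5 and an unadjusted *P* under 0.05. Over all tested genes, 1.36% were DEGs in the upward and 0.938% in the downward direction. The same 2 genes did not overlap between genotypes in CPM (counts scaled to depth with the TMM factors of the fit, not to length). Of all tested genes, 5.42% were higher and 5.18% lower without overlap in CPM. Since the group was chosen from this contrast, these counts only describe it and nothing is read from them. The median log2 fold change of the 10 genes was 0.0089, and 5 were above and 5 below 0, beside a median of -0.02 over all tested genes, of which 45.5% were above 0. Apart from *Il13ra1* and *Il4*, the log2 fold changes lay between -0.20 and 0.08.

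**Figure D2:**
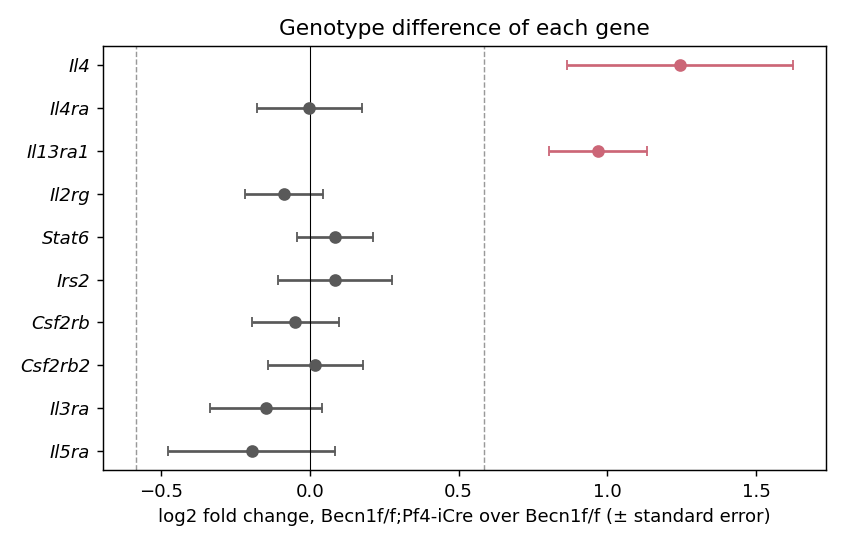
Log2 fold change of each of the 10 genes, libraries labelled Becn1f/f;Pf4-iCre over Becn1f/f, with its standard error from the edgeR fit (n = 3 per genotype); dashed lines mark a fold of 1.5 in either direction. *Il4* (1.24) and *Il13ra1* (0.97) lie beyond the upper line, and the other 8 lie around 0.

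The cytokine gene *Il4* was measured at low depth. Its estimated counts were 43, 30 and 14 in *Becn1f/f* libraries 1, 2 and 3 and 90, 53 and 62 in libraries 1, 2 and 3 labelled *Becn1f/f;Pf4-iCre*. Per length, these were 10.1, 6.22 and 3.00 FPKM against 18.5, 12.4 and 14.1 FPKM. Every library labelled *Becn1f/f;Pf4-iCre* was above every *Becn1f/f* library, but the highest control lay close to the lowest of the other genotype, and the controls were spread more widely in proportion. The log2 fold change was 1.24 ± 0.38 (SE), a ratio of mean FPKM of 2.33. It was 0.89 without *Becn1f/f* library 3, the lowest, and 1.70 without *Becn1f/f* library 1, the highest of that genotype. The cytokine of the same locus, *Il13*, was at 8.71, 5.06 and 1.31 FPKM in *Becn1f/f* libraries and 9.68, 4.84 and 2.77 FPKM in the libraries labelled *Becn1f/f;Pf4-iCre*, with a log2 fold change of 0.22 ± 0.56 (SE), and its genotypes overlapped.

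*Il13ra1*, the chain particular to the type II receptor, was read at 689, 604 and 623 counts in *Becn1f/f* libraries 1, 2 and 3 and at 1086, 1506 and 1100 counts in libraries 1, 2 and 3 labelled *Becn1f/f;Pf4-iCre*. The levels were 12.3, 10.4 and 10.7 FPKM against 18.5, 27.0 and 19.3 FPKM. The controls lay close together, the libraries labelled *Becn1f/f;Pf4-iCre* were all above them, and among the latter library 2 was the highest. The log2 fold change was 0.97 ± 0.17 (SE), a ratio of mean FPKM of 1.94, and without that library it was 0.79.

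The partners of this chain overlapped between the genotypes. *Il4ra*, shared by both receptor types, was at 15.6, 21.7 and 23.8 FPKM in *Becn1f/f* libraries and 24.1, 18.9 and 16.9 FPKM in the libraries labelled *Becn1f/f;Pf4-iCre*. Library 1 was thus the lowest of the controls and the highest of the other genotype, the groups overlapped throughout, and the log2 fold change was -0.0011 ± 0.18 (SE). *Il2rg*, the chain of the type I receptor, was at 43.8, 37.8 and 45.6 FPKM against 39.3, 38.8 and 40.6 FPKM, a log2 fold change of -0.09 ± 0.13 (SE). The values of the libraries labelled *Becn1f/f;Pf4-iCre* lay within the range of the controls. As ratios of FPKM within a library, *Il2rg* over *Il13ra1*, the chains particular to type I and type II, was 3.55, 3.65 and 4.27 in *Becn1f/f* libraries and 2.12, 1.44 and 2.10 in the others. The ratio of *Il13ra1* to the shared chain *Il4ra* was 0.792, 0.477 and 0.449 in *Becn1f/f* libraries and 0.771, 1.43 and 1.14 in the others. The first ratio separated the genotypes, whereas the second did not, because *Becn1f/f* library 1 lay above library 1 labelled *Becn1f/f;Pf4-iCre*. Both ratios contain *Il13ra1* and are no further evidence of its difference.

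Downstream of these receptors, *Stat6*, the transcription factor they activate, was at 63.7, 67.8 and 78.4 FPKM in *Becn1f/f* libraries and 75.3, 74.3 and 70.1 FPKM in the libraries labelled *Becn1f/f;Pf4-iCre*. The log2 fold change was 0.08 ± 0.13 (SE), with the second genotype inside the range of the first. *Irs2*, the adaptor, was at 36.3, 31.4 and 26.7 FPKM against 40.9, 32.4 and 25.7 FPKM. Its spread within each genotype was larger than the difference between them, with a log2 fold change of 0.08 ± 0.19 (SE).

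In the common beta family, *Csf2rb* was at 104, 97.2 and 122 FPKM in *Becn1f/f* libraries and 115, 101 and 93.0 FPKM in the libraries labelled *Becn1f/f;Pf4-iCre*, a log2 fold change of -0.05 ± 0.15 (SE). *Csf2rb2*, the chain specific to IL-3, was at 44.1, 33.1 and 42.4 FPKM against 44.8, 40.5 and 34.2 FPKM, a log2 fold change of 0.02 ± 0.16 (SE). Both genes overlapped between genotypes, and with their counts summed to 1 gene the log2 fold change was -0.03. The ratio of *Csf2rb* to *Csf2rb2* was between 2.36 and 2.93 in all 6 libraries, and the effect of shared reads on it was not tested.

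The alpha chain of the IL-3 receptor, *Il3ra*, was at 26.7, 38.9 and 33.9 FPKM in *Becn1f/f* libraries and 36.9, 29.6 and 24.3 FPKM in the libraries labelled *Becn1f/f;Pf4-iCre*, a log2 fold change of -0.15 ± 0.19 (SE). *Il5ra*, the alpha chain of the IL-5 receptor and a marker of eosinophils, was at 14.0, 5.58 and 10.1 FPKM against 6.82, 8.38 and 10.6 FPKM. Its log2 fold change was -0.20 ± 0.28 (SE), the widest error of the receptor genes among the 10, and the sign turned to 0.19 without *Becn1f/f* library 1. The ratio of *Csf2rb* to *Il5ra* was between 7.43 and 17.4 in *Becn1f/f* libraries and between 8.74 and 16.8 in the others, with no separation.

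The rest of the pathway was read from 4 lists, with *Il4* held in the first. These lists were chosen with earlier results of these data known, so their counts, adjusted p-values and refits are a description only. Without *Il4*, 53 of their genes were tested, 4 were DEGs in the upward direction and 0 in the downward direction, and the median log2 fold change was 0.04. Over all tested genes, 1.36% were DEGs in the upward and 0.938% in the downward direction. Of the 53, 5 were higher and 2 lower without overlap in CPM, beside 5.42% and 5.18% of all tested genes. With 1 *Becn1f/f* library left out, 1 pathway gene was a DEG in the downward direction, *Alox15* without library 2 and *Socs2* without library 3. Of the ligands and related receptor subunits, 11 of 16 were tested, and *Il4* was the only DEG, with a median of 0.04. *Il3*, *Il5*, *Csf2*, *Tslp* and *Il13ra2*, the decoy receptor of IL-13, were not tested. *Csf2ra*, the alpha chain of the GM-CSF receptor, was the highest of this list, at 109 to 161 FPKM in *Becn1f/f* libraries and 110 to 158 FPKM in the others, a log2 fold change of 0.05 ± 0.17 (SE). *Crlf2*, a chain of the TSLP receptor, followed at 44.1 to 64.1 FPKM against 41.1 to 63.3 FPKM, a log2 fold change of -0.05 ± 0.20 (SE).

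Of the 15 JAK, STAT, adaptor and phosphatase genes, all were tested and 0 were DEGs in either direction, with log2 fold changes between -0.27 and 0.28 and a median of 0.08. Over all tested genes, 1.36% were DEGs in the upward and 0.938% in the downward direction, and 5.42% were higher without overlap. The most abundant members of the list were the phosphatase genes *Ptpn6* and *Inpp5d* and the kinase gene *Jak1*. Their log2 fold changes were -0.03 ± 0.15 (SE), 0.15 ± 0.13 (SE) and -0.02 ± 0.15 (SE), and all 3 genes overlapped between genotypes. *Socs1*, a feedback inhibitor of STAT signalling, was the 1 gene of this list whose genotypes did not overlap, at 4.66 ± 0.633 FPKM in *Becn1f/f* libraries and 5.57 ± 0.212 FPKM in the others (SD, n = 3 each). Its log2 fold change was 0.28 ± 0.21 (SE; Benjamini-Hochberg adjusted p = 0.92 in the quasi-likelihood test of edgeR).

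The IL-4 and IL-13 response genes of macrophages held the other 4 DEGs. Of 26 genes, 21 were tested, 4 were DEGs in the upward direction and 0 in the downward direction, and the median was 0.04. The shares over all tested genes were 1.36% and 0.938%. *Mrc1*, the macrophage mannose receptor, was at 1.90, 1.51 and 2.22 FPKM in *Becn1f/f* libraries and 4.06, 5.45 and 3.78 FPKM in the libraries labelled *Becn1f/f;Pf4-iCre*. As for *Il13ra1*, library 2 of that genotype was the highest, and no *Becn1f/f* library reached the lowest of them. The log2 fold change of *Mrc1* was 1.26 ± 0.19 (SE; edgeR adjusted p = 0.057). *Clec10a*, a lectin of macrophages and dendritic cells, was at 14.9, 16.5 and 14.3 FPKM against 27.6, 27.9 and 21.1 FPKM, a log2 fold change of 0.76 ± 0.16 (SE; edgeR adjusted p = 0.15). *Klf4*, a transcription factor of monocytes and a target of STAT6 in macrophages, was at 192, 158 and 158 FPKM against 252, 286 and 264 FPKM, a log2 fold change of 0.67 ± 0.15 (SE; edgeR adjusted p = 0.17). The genotypes of these 3 genes did not overlap. *Slc7a2*, a transporter of arginine, was under 1 FPKM in every library and overlapped between genotypes, with a log2 fold change of 0.79 ± 0.32 (SE; edgeR adjusted p = 0.74). It was no longer a DEG without *Becn1f/f* library 1, without *Becn1f/f* library 2, without library 2 labelled *Becn1f/f;Pf4-iCre* or in the limma fits on FPKM. None of the 4 had an adjusted p below 0.05 in this edgeR fit. *Mrc1*, *Clec10a* and *Klf4* did by DESeq2, *Mrc1* also by edgeR with upper-quartile normalization, with no filter on low counts or with the replicate block, and *Mrc1* and *Klf4* by edgeR without *Becn1f/f* library 1.

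The other 17 tested members of the same list were not DEGs. *Chil3*, a chitinase-like secreted protein and the most abundant of them, was at 1449 to 1794 FPKM in *Becn1f/f* libraries and 1684 to 2157 FPKM in the others, a log2 fold change of 0.19 ± 0.15 (SE). *Alox15*, a lipoxygenase that eosinophils also express, was at 694, 267 and 383 FPKM against 331, 261 and 376 FPKM, a log2 fold change of -0.46 ± 0.29 (SE). Its highest library was *Becn1f/f* library 1, as for *Il5ra*. *Il4i1*, which encodes an amino acid oxidase, was lower without overlap, at 0.937 ± 0.255 FPKM in *Becn1f/f* libraries and 0.677 ± 0.0802 FPKM in the others (SD, n = 3 each). Its log2 fold change was -0.46 ± 0.31 (SE; edgeR adjusted p = 0.90). *Arg1*, *Retnla*, *Ccl17*, *Ccl22* and *Ccl24*, among the best known IL-4 targets of macrophages, were below the expression filter.

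Of 12 STAT5 response genes of the common beta receptors, all were tested and 0 were DEGs in either direction, with a median of 0.02. The shares of DEGs over all tested genes were 1.36% upward and 0.938% downward. Without overlap, 5.42% of all tested genes were higher and 5.18% lower. *Mcl1*, *Pim1* and *Osm* were the most abundant, with log2 fold changes of 0.12 ± 0.18 (SE), -0.02 ± 0.21 (SE) and 0.37 ± 0.16 (SE). *Osm*, which encodes the cytokine oncostatin M, was higher without overlap, at 220 ± 48.1 FPKM in *Becn1f/f* libraries and 280 ± 20.1 FPKM in the others (SD, n = 3 each), with an edgeR adjusted p of 0.76. *Bcl2l1*, which encodes a survival protein, was lower without overlap, at 10.7 ± 0.999 FPKM in *Becn1f/f* libraries and 8.73 ± 0.723 FPKM in the others, a log2 fold change of -0.28 ± 0.14 (SE; edgeR adjusted p = 0.84). The lowest value of the list was that of *Socs2*, at -0.70, which was not a DEG.

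**Figure D3:**
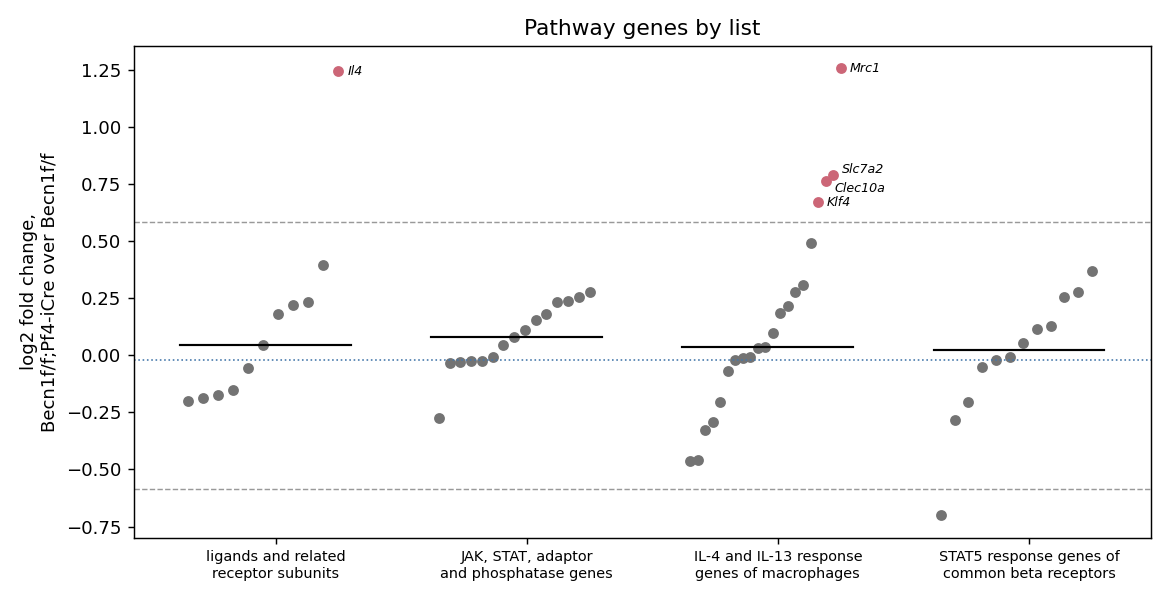
Log2 fold change, libraries labelled Becn1f/f;Pf4-iCre over Becn1f/f, of each tested gene of the 4 pathway lists, in increasing order within a list; red points with names are DEGs, black lines are the medians of the lists, the dotted line is the median over all tested genes (-0.02), and dashed lines mark a fold of 1.5. The named genes are *Il4* and 4 macrophage response genes, all above the upper line.

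Markers of the cells known to carry these receptors were read beside them. The marker lists too were chosen with earlier results known, so their counts are a description. Over all tested genes, 45.5% had log2 fold changes above 0, 5.42% were higher without overlap, and 1.36% were DEGs in the upward direction. Of 7 monocyte markers, all had log2 fold changes above 0 (median 0.39), and 5 did not overlap between genotypes in CPM. The 1 DEG was *Cx3cr1*, whose genotypes overlapped in FPKM. The summed level of the 7 markers was 2735 to 3426 FPKM in *Becn1f/f* libraries and 3638 to 3814 FPKM in the others. The most abundant were *Ly6c2*, at 0.09 ± 0.16 (SE), and *Fn1*, at 0.53 ± 0.17 (SE). Of 14 macrophage markers, 12 were tested, 11 were above 0 (median 0.42), and 4 were DEGs in the upward direction, *Mrc1*, *Cd163*, *C1qc* and *Siglec1*. *Mrc1* is in both this list and that of the response genes. *Csf1r* is in both this list and the monocyte list, so it counts in both medians and both sums. The summed level of the 14 macrophage markers was 317 to 361 FPKM against 352 to 408 FPKM, which overlapped. *Marco* and *Timd4* were below the expression filter, and none of the 14 was at 0 in all libraries. *Csf1r* and *Cd68*, the most abundant, had log2 fold changes of 0.26 ± 0.16 (SE) and 0.14 ± 0.19 (SE). The medians of both lists thus lay in the direction of *Il13ra1*, and their part in its difference was not tested.

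Markers of eosinophils lay on the other side of 0. All 8 had log2 fold changes below 0 (median -0.41), 0 were DEGs, and none was at 0. Their sum was 7236 to 16615 FPKM in *Becn1f/f* libraries and 5755 to 10378 FPKM in the others, and the highest library was *Becn1f/f* library 1, the library in which *Il5ra* was also the highest. *Prg2* (major basic protein) and *Ear1* led this list, at -0.40 ± 0.32 (SE) and -0.43 ± 0.29 (SE). Of 8 basophil and mast cell markers, 0 were DEGs, 5 were below 0, and the median was -0.04. Their sum was 1795 to 2412 FPKM against 1767 to 1942 FPKM. *Prss34* and *Mcpt8*, proteases of basophils, had log2 fold changes of -0.26 ± 0.14 (SE) and -0.27 ± 0.17 (SE). The summed levels of both lists overlapped between the genotypes, and their part in the values of *Il4* and *Il5ra* was not tested.

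**Figure D4:**
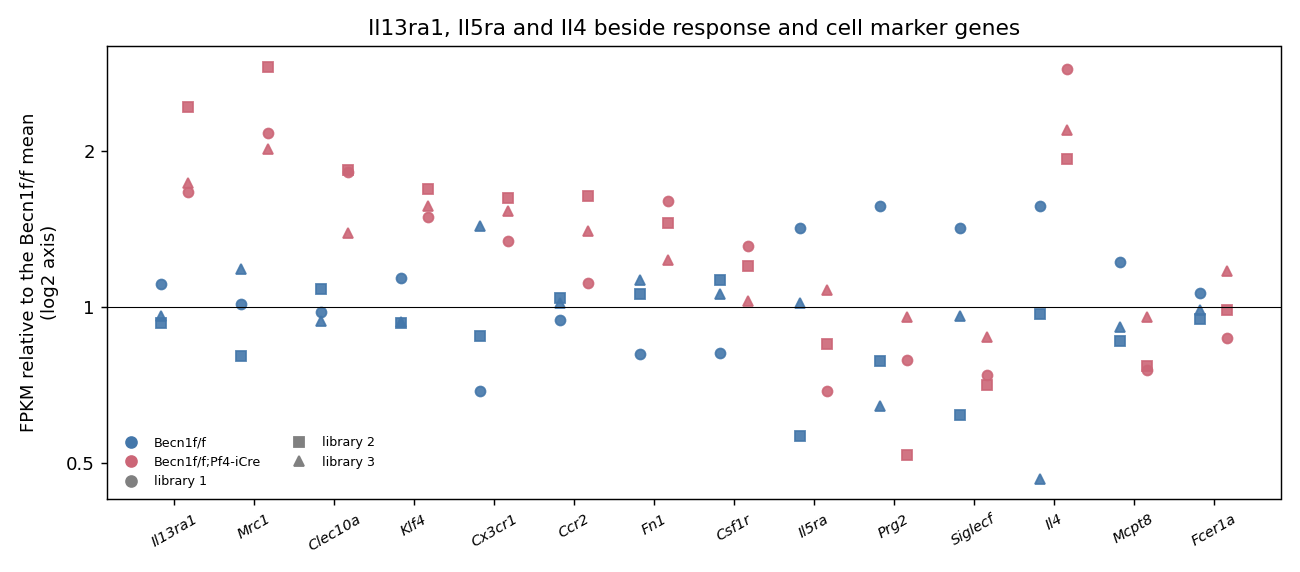
FPKM of *Il13ra1*, *Il5ra* and *Il4* and of selected response and marker genes in each library, divided by the mean of the 3 Becn1f/f libraries (log2 axis); blue is Becn1f/f, red is Becn1f/f;Pf4-iCre, and circles, squares and triangles are libraries 1, 2 and 3. For *Il13ra1*, *Mrc1*, *Clec10a*, *Klf4*, *Ccr2*, *Fn1* and *Il4* the 3 red points lie above the 3 blue points. The monocyte genes *Cx3cr1* and *Csf1r* overlap between the genotypes. So do *Il5ra*, the eosinophil genes *Prg2* and *Siglecf* and the basophil genes *Mcpt8* and *Fcer1a*.

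Among the other lists, neutrophil markers had 1 DEG, *Mmp9*, in the downward direction (12 tested, all 12 below 0, median -0.43, summed level 24615 to 38332 FPKM against 16938 to 29587 FPKM). Erythroid markers had 6 in that direction (10 tested, all 10 below 0, median -0.64). B cell markers had 1, *Igll1* (9 tested, 8 below 0, median -0.22), and MK and platelet markers 1, *Pf4* (14 tested, 10 below 0, median -0.11). Endothelial and stromal markers had 1, *Kdr* (6 tested, 3 below 0, median -0.08), and T and NK cell markers 0 (7 tested, 4 below 0, median -0.05). Lower without overlap in CPM were 3 neutrophil, 5 erythroid, 1 MK and platelet and 1 endothelial and stromal marker, and 0 of the B, T and NK cell markers. Over all tested genes, 0.938% were DEGs in the downward direction, and 5.18% were lower without overlap. The dendritic cell list had 1 DEG in the upward direction, *Flt3*, the receptor of FLT3 ligand (7 tested, median -0.02). Since the RNA is a mixture, a difference in *Il13ra1* per cell and one in the share of cells that carry it cannot be told apart.

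The genes most like *Il13ra1* across the 6 libraries were found by Pearson correlation of log2 CPM, as a description over points that share their genotype difference. They were *Rnf150* (0.998), *Abca6* (0.993), *Dock10* (0.991), *Gpm6b* (0.990) and *Abca9* (0.990), of which *Rnf150*, *Abca6* and *Abca9* were DEGs in the upward direction. Among the other 9 genes of the group, *Il4* came closest, at 0.753 and rank 742, while the rest lay between -0.415 for *Il3ra* and 0.358 for *Stat6*. With the mean of each genotype subtracted, the closest were *Usp37* (0.991), *Zfp967* (0.990), *Usp7* (0.988), *Rabl3* (0.987) and *Rnf150* (0.986). *Rnf150* was in both lists.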

How the data were processed

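RNA of sorted bone marrow cells labelled as MKs was measured in 6 libraries, and the labels gave the genotype and number of each. The 10 genes, the gene lists and the rule for named genes were chosen with earlier results of these data known. The authors filtered reads of low quality and mapped the rest with HISAT. The submitters' processing notes also name Bowtie2 and the build GRCm39 (mm39), and the counting tool is not given in the sources used here. The deposited estimated counts are not normalized and not whole for 10.34% to 11.33% of genes per library; the deposited FPKM values carry the authors' scaling for length and depth. A further 16 columns of per-sample values (4 of them of 1 library with no match among these samples) and 8 columns of means over a group stayed unused.

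Estimated counts were rounded, filtered by edgeR's expression filter, scaled by TMM and fitted by quasi-likelihood in edgeR 4.0.16 (R 4.3.3, genotype only, Benjamini-Hochberg adjustment over 12256 genes). Standard errors are the size of the log2 fold change divided by the root of F. Within a genotype, every pair of libraries differed beyond counting noise (15.3 to 50.2 chi-square per degree of freedom). An exact permutation test of 3 libraries against 3 cannot give a p below 0.1, so no permutation p was given. The adjusted p-values printed come from the fits named beside them. The total counts bound counting error only. Levels are FPKM. Genes named were the 10 genes, *Becn1*, the 3 most abundant genes and the DEGs of each pathway list, the 2 most abundant genes and the DEGs of each marker list, and the 5 genes most like *Il13ra1*. *Il13*, *Socs1*, *Socs2*, *Il4i1*, *Bcl2l1*, the genes named as not tested, and the further marker genes in the plot of cell marker genes were named after their values were seen. So were the further genes named for the order of the library numbers. The erythroid DEGs and some abundant markers of other lists are given as counts. The alternatives were DESeq2 1.42.0, its size factors, upper-quartile normalization, other filters, the replicate block, and a correction for GC content and length of GENCODE M21 transcripts (matched for 96.7% of genes). Further ones were this correction together with the replicate block, limma 3.58.1 on log2(FPKM + 1) or log2(FPKM + 0.1), and leaving out each library. Promoters are RefSeq windows on GRCm38.p6, another build than that of the files, matched by symbol. The edgeR steps were tested on simulated data.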

Additional observations from a re-analysis of the deposited data

How the results depend on the processing

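The refits use the values from which the group was chosen, so for the 10 genes they describe the fits and are no support: the DEG calls were *Il13ra1* and *Il4* in each. The gene lists were chosen with earlier results known, so for the pathway genes the refits are a description too. When calls required an adjusted p under 0.05, the edgeR fit of the report called 0 of the 10 genes and 0 of the pathway genes (4 with the DEG thresholds), where 2 and 5 had an unadjusted p under 0.05. Adjusted calls numbered 1 and 3 with DESeq2, 1 and 1 with no filter on low counts, and 0 and 1 with upper-quartile normalization. They numbered 1 and 2 without *Becn1f/f* library 1, and 1 and 0 with the replicate block and the GC and length correction together. The log2 fold change of *Il13ra1* was 0.79 to 1.08 over 17 alternatives (0.82 with the GC and length correction), and that of *Il4* was 0.89 to 1.70. Neither changed sign, whereas *Il4ra*, at a difference near 0, did so in 9 of 17. When single libraries were left out, the number of pathway DEGs was 3 to 7, the highest without *Becn1f/f* library 3 (6 higher and 1 lower). *Alox15* was lower past the thresholds without *Becn1f/f* library 2, as was *Ccl22* in limma on log2(FPKM + 0.1). Over all genes, 167 were higher and 115 lower as DEGs, against 81 and 29 with limma on log2(FPKM + 1), 96 and 40 with that fit at a mean FPKM of at least 1, 215 and 206 with log2(FPKM + 0.1), 267 and 131 without *Becn1f/f* library 1, and 202 and 208 without *Becn1f/f* library 2. The causes of these shifts were not tested. Counts of *Il4*, at most 90, limit its precision. The genotypes share replicate numbers, but same-numbered libraries did not deviate together (correlations of 0.0714, -0.271 and 0.198, and 1 of the 3 pairs closest to its own number), so the numbers were not taken as pairs; with the replicate block the log2 fold change was 0.96 for *Il13ra1* and 1.30 for *Il4*, the 10 genes gave 2 DEGs higher and 0 lower, the pathway lists gave 4, adjusted calls numbered 1 (*Il13ra1*) and 1 (*Mrc1*), and all genes gave 180 higher and 116 lower.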

Other observations

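A pattern chosen after the values were seen concerned the library numbers. In both genotypes, library 1 was the highest and library 3 the lowest in *Irs2*, in *Il13* and in the STAT feedback genes *Socs3* and *Cish*. The order was not particular to these genes: *Pim1*, *Kdm6b* and *Tgm2* had it too, and the feedback genes *Socs1* and *Socs2* did not. The share of all genes with this order was not counted. *Socs3* was at 54.2, 41.5 and 26.6 FPKM in *Becn1f/f* libraries 1, 2 and 3 and at 66.8, 49.6 and 29.0 FPKM in libraries 1, 2 and 3 labelled *Becn1f/f;Pf4-iCre*. *Cish* was at 11.8, 8.50 and 4.64 FPKM against 11.2, 8.24 and 5.21 FPKM. The labels do not say what, if anything, same-numbered libraries share.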
